A study of Mus musculus with 12 samples.

Results

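The nicotinic acetylcholine receptor of skeletal muscle is built from the products of 5 genes, Chrna1, Chrnb1, Chrnd, Chrng and Chrne, which encode its alpha, beta, delta, gamma and epsilon subunits. Both deposited expression tables hold a row for each of them, 5 of 25094 listed genes, chosen by symbol. The samples are poly(A) RNA of the gastrocnemius (a muscle of the calf) of male wild-type mice. The groups are the right leg and the left leg of BALB/c mice and the right leg and the left leg of C57BL/6 mice, 3 libraries each. On the right side the sciatic nerve was cut, its stumps were folded back and stitched into muscle, and tissue was collected 2 weeks later. The left leg is labelled healthy. A sham operation is described without saying which legs received it, and no age is given. All groups carry the wild-type genotype and no other agent is named.

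Each receptor is a ring of alpha, beta and delta subunits with either gamma or epsilon. In fetal muscle the gamma subunit is used, and after birth epsilon replaces it at the synapse, where the nuclei under the nerve ending transcribe the receptor genes and electrical activity keeps the other nuclei silent. When the nerve is lost, transcription of the receptor genes resumes along the fibre, the classical basis of denervation supersensitivity. E-boxes, which myogenic factors such as myogenin and MyoD bind, and N-boxes, which the Ets factor GABP binds at synaptic nuclei, are the best known promoter elements of these genes.

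The 250 bases upstream of the annotated start are shown for the subunit genes because E-boxes and N-boxes lie in them. The sequences are RefSeq's in build GRCm38.p6, from the gene's own strand, for 4 of the 5 members (Chrnd is the other). Capitals mark the E-boxes CAGCTG and CAGGTG (searched also as its reverse complement CACCTG) and the N-box CCGGAA (searched also as TTCCGG), and no marked matches overlap.
Chrna1, chr2:73580339-73580588, minus strand: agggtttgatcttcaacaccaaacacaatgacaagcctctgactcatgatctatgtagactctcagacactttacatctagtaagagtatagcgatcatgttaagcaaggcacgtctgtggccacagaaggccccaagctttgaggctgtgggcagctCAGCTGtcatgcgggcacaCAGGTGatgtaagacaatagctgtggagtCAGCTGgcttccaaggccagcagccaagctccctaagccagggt
Chrnb1, chr11:69795938-69796187, minus strand: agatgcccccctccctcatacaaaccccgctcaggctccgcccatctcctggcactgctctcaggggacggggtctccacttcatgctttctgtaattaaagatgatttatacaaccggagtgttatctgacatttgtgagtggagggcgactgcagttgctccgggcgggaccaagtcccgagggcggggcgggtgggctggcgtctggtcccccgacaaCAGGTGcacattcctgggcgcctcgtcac
Chrng, chr1:87205561-87205810, plus strand: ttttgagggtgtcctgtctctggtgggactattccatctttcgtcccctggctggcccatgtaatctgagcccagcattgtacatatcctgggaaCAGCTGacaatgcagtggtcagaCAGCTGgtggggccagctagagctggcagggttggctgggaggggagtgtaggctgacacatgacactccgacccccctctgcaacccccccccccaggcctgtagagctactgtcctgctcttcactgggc
Chrne, chr11:70619195-70619444, minus strand: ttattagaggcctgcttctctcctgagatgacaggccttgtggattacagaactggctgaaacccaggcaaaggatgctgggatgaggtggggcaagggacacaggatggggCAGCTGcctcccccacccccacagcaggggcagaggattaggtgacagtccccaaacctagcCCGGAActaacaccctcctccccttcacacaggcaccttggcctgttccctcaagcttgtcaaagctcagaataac

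Chrna1 had 3 marked E-boxes, whose first bases lay 92, 73 and 44 bases before the start. Chrng had 2, at 155 and 132 bases, and Chrnb1 had 1, at 29 bases. Chrne had 1 E-box at 138 bases and was the only one of the 4 with the N-box, at 76 bases. Of 32851 upstream windows of the same length in the table, 27.7% held at least 1 such E-box, 5.21% held 2 or more and 12.03% held the N-box. The looser E-box CANNTG was in 66.2% of them. These matches describe letters in the window and are not measured binding sites.

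**Figure D1:**
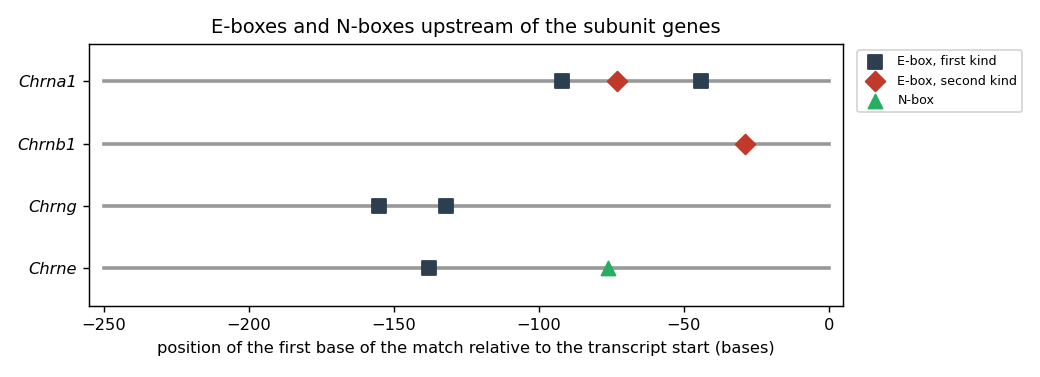
Matches in the 250 bases upstream of 4 subunit genes; the x axis is the position of the first base of each match relative to the transcript start, squares are CAGCTG, diamonds CAGGTG and triangles CCGGAA. Chrna1 has 3 E-boxes and Chrne is the one gene with an N-box.

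Positions of the genes are given in mm9, as the tables list them. Chrna1 (NM_007389) lies on chromosome 2, 73401338 to 73418395, and Chrnb1 (NM_009601) on chromosome 11, 69597538 to 69609439. Chrnd (NM_021600), chromosome 1, 89087172 to 89096645, and Chrng (NM_009604), 89102386 to 89108410, follow each other on the plus strand with 5740 bases between them. Chrne (NM_009603) lies on chromosome 11, 70428385 to 70432696, and overlaps 4930544D05Rik, a gene listed on the other strand. Reads were counted without regard to strand, so reads shared by Chrne and 4930544D05Rik cannot be told apart; 4930544D05Rik had 7 to 60 reads per library, 6.73% to 19.8% of the Chrne number.

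The totals used for scaling were between 18132600 and 19282900 reads per library. Values are RPKM, reads per kilobase of the listed transcript scaled to library size, so levels of different genes can be set side by side. Genes of the skeletal muscle fibre were abundant in every library: Acta1, Ckm, Myh4, Tnnt3, Tnnc2, Mb, Pvalb and Ttn summed to 65963 to 94170 RPKM in BALB/c right, 103495 to 137839 in BALB/c left, 81124 to 84565 in C57BL/6 right and 145373 to 158404 RPKM in C57BL/6 left legs. Of these 8, the right legs of BALB/c had 1 called higher and 3 lower, and those of C57BL/6 had 1 higher and 7 lower. Among all tested genes 42.5% were called higher and 7.67% lower in BALB/c, and 63.6% higher and 8.56% lower in C57BL/6. On the log2(RPKM + 0.5) scale the typical (median) tested gene changed by 0.38 in BALB/c and by 0.52 in C57BL/6, right minus left. Relative changes below have that median subtracted. No label states that replicate libraries are separate animals, so the p-values here rest on library-to-library spread that may be technical. In bulk muscle a change in the number of cells of a type and a change of RNA per cell cannot be told apart.

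The right legs were compared with the left legs to ask how each subunit transcript changed after the nerve was cut. Transcripts of the alpha, beta, delta and gamma subunits rose in both strains, and epsilon did not pass the test in either. Of the 5 subunits, 4 rose and 0 fell in BALB/c by limma, and 4 rose and 0 fell in C57BL/6 (adjusted p under 0.05 over all genes). Among all tested genes 42.5% were called higher and 7.67% lower in the right legs of BALB/c, and 63.6% higher and 8.56% lower in those of C57BL/6. At an unadjusted p under 0.05, 1 subunit fell in BALB/c and 0 in C57BL/6; limma-voom on the recovered reads called 1 and 0 lower. In either direction 50.2% of tested genes were called in BALB/c and 72.2% in C57BL/6. After median-of-ratios rescaling 4 subunits rose and 1 fell in BALB/c, against 21.5% of all tested genes higher and 19.3% lower. In C57BL/6 the same rescaling left 4 subunits higher and 0 lower, against 28.4% of genes higher and 26.3% lower. The 4 subunits lay higher in every right library than in any left library of their strain, as did 48.1% of genes in BALB/c and 66.2% in C57BL/6. No subunit lay lower in every right library, as 10.4% and 9.57% of genes did. The median change of the 5 was 6.09 in BALB/c, where the median of 14819 tested genes was 0.38, and 6.98 in C57BL/6, where that of 14551 genes was 0.52. Chrng passed the filter of a mean of 0.1 RPKM only through its right legs, so its place among the tested genes rests on its rise.

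**Figure D2:**
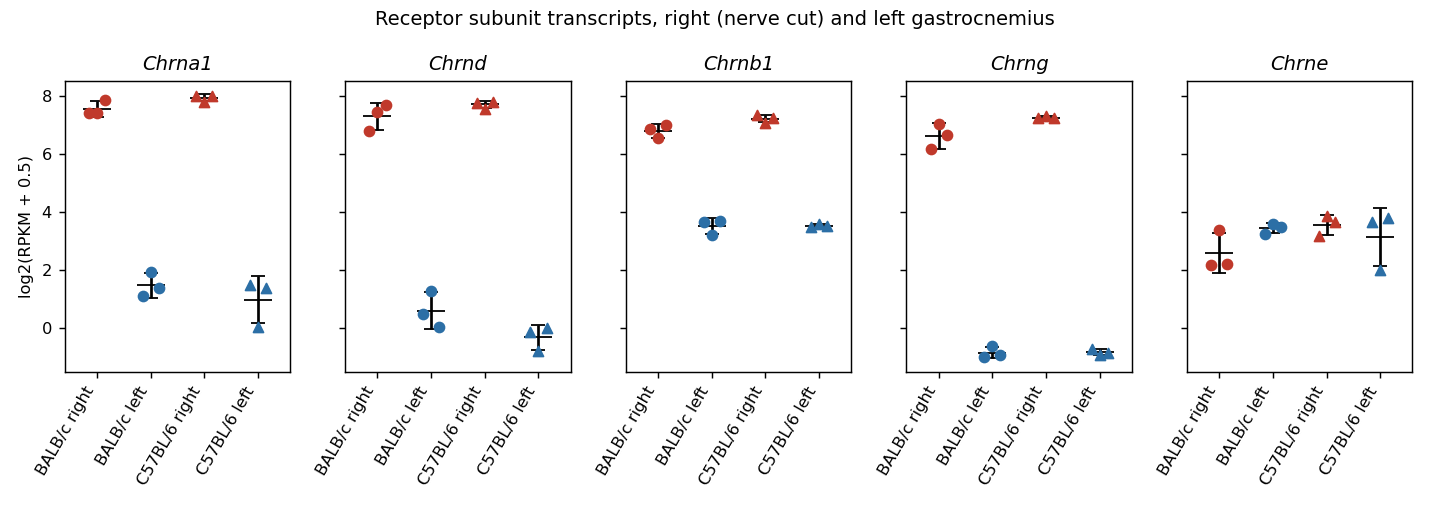
Level of each subunit as log2(RPKM + 0.5) on the y axis, by strain and leg; points are libraries (red right, blue left, circles BALB/c, triangles C57BL/6), the dash and bars are mean and SD over 3 libraries. The right legs lie above the left legs without overlap for 4 subunits, and the legs overlap for Chrne.

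Chrng, the fetal gamma subunit, was all but absent from the left legs and abundant in the right ones. It had 71.6, 133 and 100.5 RPKM in the right legs of BALB/c, against 0, 0.145 and 0.0280 RPKM in the left legs, where it had 0, 5 and 1 reads. The library with 0 reads allows up to 0.0862 RPKM, the level of 3 reads. Chrng in C57BL/6 had 151, 159 and 151 RPKM in the right legs, against 0.111, 0.0280 and 0.0560 RPKM (4, 1 and 2 reads) in the left legs. The 3 right libraries of C57BL/6 lay close together, whereas those of BALB/c were spread more widely. Summed reads gave a right to left ratio of 1770 in BALB/c (exact 95% interval 813 to 4825, 10997 against 6 reads) and of 2371 in C57BL/6 (1150 to 5897, 16756 against 7 reads). These intervals cover counting error only. The fitted changes, 7.48 ± 0.23 in BALB/c (SE, adjusted p = 1.7e-06 by limma) and 8.10 ± 0.08 in C57BL/6 (adjusted p = 1.0e-08), are held down by the pseudocount of 0.5. Relative to the median gene they were 7.11 and 7.57. Only 5 genes had a larger rise in either strain, since Chrng ranked 6 in both.

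Chrnd, the delta subunit, which forms a transmitter binding site together with alpha, had 111, 174 and 209 RPKM in the right legs of BALB/c, against 0.891, 1.94 and 0.529 RPKM in the left legs. The C57BL/6 libraries had 221, 191 and 223 RPKM in the right legs, against 0.411, 0.0720 and 0.504 RPKM in the left legs. The legs were far apart in both strains, and library 2 of the C57BL/6 left legs, with 4 reads, was the lowest of all 12. Summed reads were 148 times higher in the right legs of BALB/c (exact 95% interval 128 to 172) and 642 times higher in those of C57BL/6 (493 to 852). The fitted log2 changes were 6.72 ± 0.34 in BALB/c (SE, adjusted p = 1.3e-05 by limma) and 8.04 ± 0.20 in C57BL/6 (adjusted p = 3.8e-07), rank 12 and rank 7 among all rises.

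Chrna1 encodes the alpha subunit, which carries the main part of the acetylcholine binding site. It had 170, 169.9 and 235 RPKM in the right legs of BALB/c, against 1.64, 3.30 and 2.14 RPKM in the left legs. C57BL/6 libraries had 261, 225 and 259.8 RPKM in the right legs, against 2.32, 0.532 and 2.12 RPKM in the left legs. The 2 legs did not overlap in either strain, and the lowest left value was again that of C57BL/6 library 2. Summed reads were 81.4 times higher in the right legs of BALB/c (exact 95% interval 74.9 to 88.7) and 149 times higher in those of C57BL/6 (135.6 to 165). The fitted log2 changes were 6.09 ± 0.23 in BALB/c (SE, adjusted p = 5.0e-06 by limma, rank 18) and 6.98 ± 0.36 in C57BL/6 (adjusted p = 4.4e-06, rank 16).

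Chrnb1, the beta subunit, had the smallest fitted rise of the 4 and, with Chrne, the highest level in the left legs. It had 116, 93.5 and 129.6 RPKM in the right legs of BALB/c, against 12.2, 8.86 and 12.4 RPKM in the left legs. For C57BL/6 the values were 164, 136 and 152 RPKM in the right legs, against 10.7, 11.5 and 11.04 RPKM in the left legs. The left legs of C57BL/6 differed little from each other, and library 2 was the highest of them. Summed reads were 10.1 times higher in the right legs of BALB/c (exact 95% interval 9.58 to 10.7) and 13.6 times higher in those of C57BL/6 (12.9 to 14.4). The fitted log2 changes were 3.29 ± 0.18 in BALB/c (SE, adjusted p = 1.9e-05 by limma, rank 118) and 3.704 ± 0.08 in C57BL/6 (adjusted p = 3.1e-07, rank 127).

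Chrne, the adult epsilon subunit, had 3.99, 10.1 and 4.18 RPKM in the right legs of BALB/c, against 9.04, 11.6 and 10.8 RPKM in the left legs. Right library 2 lay among the left legs, and the other 2 right libraries lay below all of them. The log2 change was -0.85 ± 0.32 (SE, 95% interval -1.58 to -0.12, adjusted p = 0.0544 by limma), or -1.23 relative to the median gene. Without BALB/c right library 2 it was -1.25 (adjusted p = 9.1e-04), and after median-of-ratios rescaling it was -1.34 (adjusted p = 0.0177). Over all alternatives the adjusted p went from 9.1e-04 to 0.214. In C57BL/6 Chrne had 8.59, 14.2 and 12.1 RPKM in the right legs, against 12.2, 3.52 and 13.5 RPKM in the left legs. The legs overlapped, and left library 2 alone was far below the rest. The log2 change there was 0.41 ± 0.46 (95% interval -0.67 to 1.49, adjusted p = 0.445), and it was -0.17 without left library 2 and -0.27 after rescaling, so its sign depended on that library and on the scaling.

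**Figure D3:**
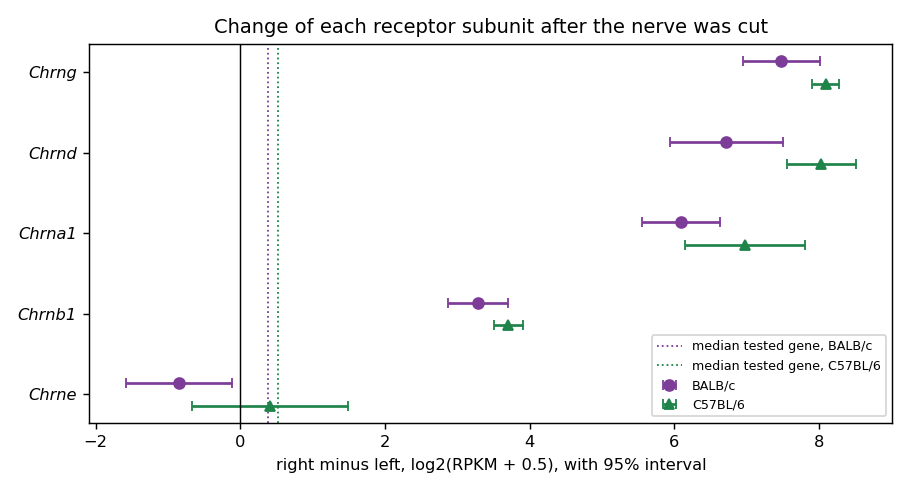
Right minus left change of each subunit on the log2(RPKM + 0.5) scale (x axis) with its 95% interval from limma; circles are BALB/c, triangles C57BL/6, and dotted lines mark the median tested gene. Chrng, Chrnd and Chrna1 lie between 6.09 and 8.10, Chrnb1 at 3.29 and 3.704, and Chrne near the median gene or below it.

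The order of the subunits differed between the legs. In the left legs of BALB/c the mean levels ran Chrnb1 (11.2 RPKM), Chrne (10.5), Chrna1 (2.36), Chrnd (1.12) and Chrng (0.0577). The means in the left legs of C57BL/6 were 11.1, 9.74, 1.66, 0.329 and 0.0650 RPKM. There Chrnb1 was above Chrne in library 2 alone, and Chrne was the higher one in libraries 1 and 3. Chrnb1 and Chrne overlapped in both strains, Chrna1 and Chrnd overlapped in BALB/c, and Chrnd and Chrng overlapped in C57BL/6 through left library 2. In the right legs Chrna1 was highest on average, 191 RPKM in BALB/c and 248 RPKM in C57BL/6, followed by Chrnd, 165 and 211 RPKM. In C57BL/6 right legs Chrna1, Chrnd and the pair of Chrng and Chrnb1 were separated without overlap, while Chrng (154 RPKM) and Chrnb1 (151 RPKM) were not. In BALB/c right legs those 4 subunits overlapped with their neighbours, and Chrne stood far below in both strains.

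The gamma to epsilon ratio is the usual measure of the fetal against the adult receptor. The ratio of Chrng to Chrne was 17.9, 13.3 and 24.1 in the right legs of BALB/c, against 0, 0.0125 and 0.00259 in the left legs. For C57BL/6 it was 17.6, 11.3 and 12.5 in the right legs, against 0.00912, 0.00796 and 0.00414 in the left legs. Every right library had more Chrng than Chrne per length, and every left library had more Chrne than Chrng. Chrng made up 94.6 ± 1.52% of the sum of the 2 in BALB/c right legs and 0.498 ± 0.653% in the left legs (SD, n = 3 libraries). In C57BL/6 it made up 93.0 ± 1.44% in right legs and 0.702 ± 0.258% in left legs. On the log2 scale with a pseudocount of 0.5 the ratio was 8.33 higher in the right legs of BALB/c and 7.69 higher in those of C57BL/6. Each strain alone gave p = 0.1 in an exact two-sided permutation test, and no lower p can be had with 3 libraries a leg. Over both strains, permuting within strain, the difference was 8.01 (exact permutation p = 0.005, the smallest of 400 arrangements). With a pseudocount of 0.1 it was 9.88, and with 1 it was 7.08. The ratios of RPKM without a pseudocount do not depend on how a library was scaled.

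The summed level was higher in every right library than in any left library of its strain. The sum of all 5 subunits was 578 ± 102 RPKM in right and 25.2 ± 1.20 RPKM in left legs of BALB/c (SD, n = 3 libraries). In C57BL/6 it was 776 ± 44.2 RPKM in right and 22.9 ± 6.28 RPKM in left legs. Chrne made up 1.06 ± 0.589% of that sum in right legs of BALB/c, against 41.5 ± 3.44% in left legs, and 1.51 ± 0.443% in right legs of C57BL/6, against 39.8 ± 15.1% in left legs. Chrnb1 likewise took 19.9 ± 4.31% in right and 44.6 ± 9.05% in left legs of BALB/c, and 19.4 ± 0.870% in right and 51.9 ± 18.8% in left legs of C57BL/6. These shares and those that follow are descriptions without a test.

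**Figure D4:**
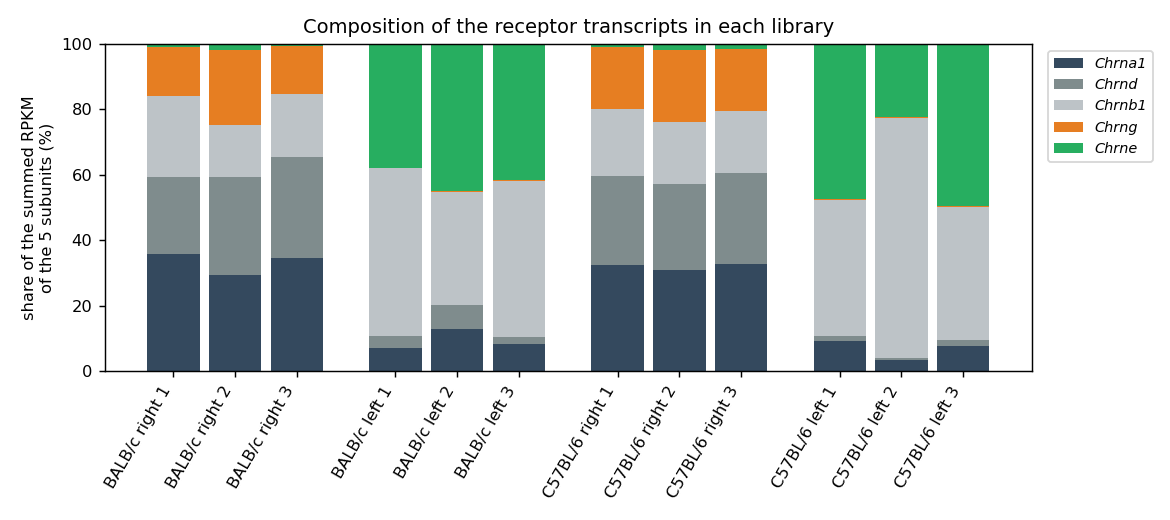
Share of each subunit in the summed RPKM of the 5 subunits (y axis, percent) in each of 12 libraries; segments from the bottom are Chrna1, Chrnd, Chrnb1, Chrng and Chrne. Chrne and Chrnb1 make up most of the sum in the left legs, and Chrng appears in the right legs, at 14.8% to 22.9% of the sum.

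In the right legs the 4 raised subunits came close to each other in level. The ratio of Chrna1 to Chrnd was 1.21 ± 0.285 in BALB/c right legs and 2.53 ± 1.31 in left legs, and 1.17 ± 0.00652 in C57BL/6 right legs and 5.75 ± 1.59 in left legs (SD, n = 3 libraries). The 3 right libraries of C57BL/6 gave 1.18, 1.18 and 1.17, a spread far below that of the other groups. The ratio of Chrnb1 to Chrnd was 0.734 ± 0.273 in BALB/c right legs and 13.9 ± 9.48 in left legs, and 0.713 ± 0.0306 in C57BL/6 right legs and 69.4 ± 78.7 in left legs. In the last group left library 2 stood at 160, with 4 reads of Chrnd. Chrng and Chrne together, the subunits that can take the same place in the ring, were 0.667 ± 0.162 of Chrnd in BALB/c right legs and 12.2 ± 7.46 times Chrnd in left legs. In C57BL/6 they were 0.788 ± 0.105 of Chrnd in right legs and 35.4 ± 12.1 times Chrnd in left legs.

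The spread between libraries differed among subunits. In the right legs of BALB/c the coefficient of variation was 30.3% for Chrng, 30.1% for Chrnd, 19.5% for Chrna1, 16.1% for Chrnb1 and 56.8% for Chrne. In those of C57BL/6 it was 3.10%, 8.46%, 8.24%, 9.36% and 24.2%. Chrne thus varied most in the right legs of both strains. Right library 1 of BALB/c had the lowest Chrng, Chrnd and Chrne, while its Chrna1 and Chrnb1 were not lowest.

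Within the left legs, library 2 of C57BL/6 was low for most subunits. It had the lowest Chrna1, Chrnd, Chrne and Chrng of the 3, that is 4 of the 5 subunits, while 28.6% of all tested genes were lowest there. Its Chrna1 was 0.532 RPKM, against 2.32 and 2.12 RPKM in left libraries 1 and 3. Its Chrne was 3.52 RPKM, against 12.2 and 13.5 RPKM. Colq, the collagen tail of synaptic acetylcholinesterase, and Etv5, an Ets factor of synaptic nuclei, both chosen after their values were seen, had 0.701 and 0.294 RPKM there. Colq had 2.58 and 3.04 RPKM and Etv5 0.581 and 0.642 RPKM in libraries 1 and 3. Of the 16 tested genes of receptor clustering 3 were lowest in library 2, as were 3 of the 20 genes of receptor transcription. In BALB/c, left library 1 was lowest for 12 of the 16, for 16 of the 20 and for 51.8% of all tested genes. Summed markers of Schwann cells, the glia of the nerve, were 2.09 RPKM in library 2, 119 RPKM in library 1 and 15.7 RPKM in library 3. In BALB/c left legs Chrna1, Chrnd, Chrng and Chrne were highest in library 2, where the Schwann cell sum was also highest, 114 RPKM, against 28.2 and 62.1 RPKM in libraries 1 and 3. In the right legs that sum was 22.0 to 46.7 RPKM in BALB/c and 10.7 to 48.0 RPKM in C57BL/6. Chrnb1 went the other way, lowest in BALB/c left library 2 and highest in C57BL/6 left library 2. The typical gene was also higher in BALB/c left library 2. Its median-of-ratios factor was 0.907, against 0.766 and 0.839 in left libraries 1 and 3. Chrng rested there on 5 reads, against 0 and 1. The parts of nerve content and of library scaling in these subunit levels were not tested. The rises held without C57BL/6 left library 2: Chrna1 rose by 6.51 (adjusted p = 1.4e-06), Chrnd by 7.79 (adjusted p = 7.8e-07) and Chrng by 8.05 (adjusted p = 3.8e-07) by limma. Over all alternatives in both strains the highest adjusted p of the 4 raised subunits was 0.0016.

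**Figure D5:**
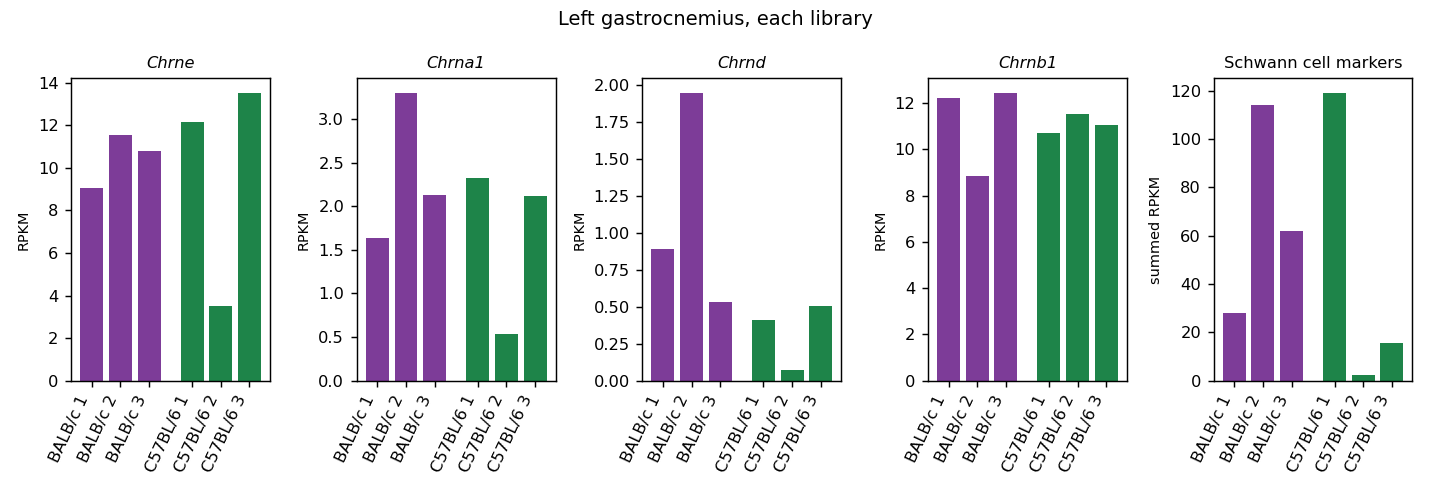
Left legs only: RPKM of 4 subunits and the summed RPKM of 7 Schwann cell markers (y axes), 1 bar per library, purple BALB/c and green C57BL/6. C57BL/6 library 2 is lowest for Chrne, Chrna1, Chrnd and the Schwann cell sum, and highest of its strain for Chrnb1.

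The strains were compared by the difference of their changes, BALB/c minus C57BL/6, since levels of the separately scaled tables cannot be tested against each other. All 5 differences were negative, and none passed the test. By limma 0 of 5 passed, where 6.09% of 14165 genes did, 4.33% with a smaller and 1.76% with a larger change in BALB/c. At an unadjusted p under 0.05 the count was 2 of 5, and by limma-voom it was 0. No share of all genes was computed beside these 2 counts. The median gene also differed by -0.14. Chrnd differed by -1.31 ± 0.44 (SE, 95% interval -2.28 to -0.35, adjusted p = 0.0985). Chrne differed by -1.26 ± 0.62 (interval -2.61 to 0.09, adjusted p = 0.234) and Chrna1 by -0.89 ± 0.47 (interval -1.90 to 0.13, adjusted p = 0.266). Chrng differed by -0.61 ± 0.26 (interval -1.19 to -0.04, adjusted p = 0.177) and Chrnb1 by -0.42 ± 0.21 (interval -0.87 to 0.04, adjusted p = 0.241). The intervals are wide, and they do not show that the strains act alike. Without C57BL/6 left library 2 the differences shrank to -0.69 for Chrne, -0.42 for Chrna1, -1.07 for Chrnd and -0.57 for Chrng. That of Chrnb1 was -0.45 there, slightly larger. By limma-voom the difference of Chrng was -0.0013. Over the alternatives other than leaving out a library, the difference of Chrnd went from -2.31 to -1.03, so not all alternatives shrank it. Without BALB/c right library 2, Chrng passed (-0.83, adjusted p = 0.0334), with adjusted p from 0.0334 to 0.9995 over all alternatives.

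Other nicotinic subunits form neuronal and sensory receptors. Of 11 listed, 4 were tested in BALB/c, of which 1 rose and 1 fell, and 3 in C57BL/6, of which 2 rose and 1 fell. Among all tested genes 42.5% rose and 7.67% fell in BALB/c, and 63.6% rose and 8.56% fell in C57BL/6. With so few genes tested, the counts cannot be told apart from those shares. The median changes of the list were -0.23 and 0.91, beside 0.38 and 0.52 for all genes. Chrna10, known from hair cells, fell to 2.50 ± 0.694 RPKM in BALB/c right legs, against 5.13 ± 0.811 RPKM in left legs (adjusted p = 0.0071 by limma). Chrna10 in C57BL/6 fell to 2.38 ± 0.317 RPKM in right legs, against 4.28 ± 0.906 RPKM in left legs (adjusted p = 0.0045). Chrna9 rose in C57BL/6, to 1.38 ± 0.813 RPKM in right legs, against 0.106 ± 0.0805 RPKM in left legs (adjusted p = 0.0024). Its log2 change in BALB/c was 0.33 ± 0.19 (SE, adjusted p = 0.179 by limma). In BALB/c the largest called rise was that of Chrnb2, with 0.176 ± 0.0404 RPKM in right and 0.0303 ± 0.02001 RPKM in left legs (adjusted p = 0.0321). Chrnb2 rose more in C57BL/6, to 0.488 ± 0.108 RPKM in right legs, against 0.0230 ± 0.0147 RPKM in left legs (adjusted p = 2.2e-04 by limma). Its changes differed by -0.56 between the strains (adjusted p = 0.0427 by limma). Like Chrng it passed the filter only through its right legs. Chrna7, which encodes the alpha7 receptor that the series description names, had 0 to 3 reads per library and passed the filter in neither strain.

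Genes that gather the receptor at the synapse came next. Of 16 tested, 8 rose and 1 fell in BALB/c, where 42.5% of all tested genes rose, and 12 rose and 1 fell in C57BL/6, where 63.6% did, so both counts are near those of all genes. Their median change was 0.39 in BALB/c and 0.91 in C57BL/6, beside 0.38 and 0.52 for all genes. Musk, the kinase that organizes the postsynaptic membrane, had the largest rise in both strains, to 8.13 ± 0.387 RPKM in BALB/c right legs, against 2.24 ± 0.618 RPKM in left legs. Musk in C57BL/6 rose to 14.5 ± 2.86 RPKM in right legs, against 2.03 ± 0.204 RPKM in left legs. Ache, acetylcholinesterase, which removes the transmitter, was the one gene of the list that fell in each strain (log2 change -2.50 ± 0.22 in BALB/c and -1.68 ± 0.23 in C57BL/6).

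Regulators of receptor transcription included genes with large rises. Of 20 tested, 12 rose and 1 fell in BALB/c, beside 42.5% of all genes higher, and 18 rose and 2 fell in C57BL/6, beside 63.6% higher. The median change of the list was 0.73 in BALB/c and 1.06 in C57BL/6, against 0.38 and 0.52 over all genes. Myog, myogenin, had the largest rise in C57BL/6, to 183 ± 92.4 RPKM in right legs, against 3.17 ± 1.38 RPKM in left legs. In BALB/c it had 156 ± 47.6 RPKM in right and 5.31 ± 1.24 RPKM in left legs (log2 change 4.73 ± 0.24, adjusted p = 1.2e-05 by limma). Runx1, a transcription factor of denervated muscle, had the largest rise in BALB/c, to 33.05 ± 3.40 RPKM in right legs, against 0.261 ± 0.00815 RPKM in left legs. Its C57BL/6 levels were much the same, 33.3 ± 3.27 RPKM in right and 0.234 ± 0.0463 RPKM in left legs. Hdac9, a deacetylase that represses the receptor genes in innervated muscle, had the largest fall in both strains (log2 change -1.43 ± 0.19 in BALB/c and -1.01 ± 0.13 in C57BL/6). Of the genes of receptor folding and assembly, 6 of 9 tested rose in BALB/c and 7 of 8 in C57BL/6, beside 42.5% and 63.6% of all genes. Their median changes were 0.43 and 0.19 above those of all genes. Canx, the chaperone calnexin, led in BALB/c with 19.7 ± 4.67 RPKM in right and 8.96 ± 1.45 RPKM in left legs. Pdia3, a disulphide isomerase of the same compartment, led in C57BL/6 with 32.35 ± 3.12 RPKM in right and 9.84 ± 0.432 RPKM in left legs. Canx also rose in C57BL/6 (log2 change 1.58 ± 0.08), and Pdia3 also rose in BALB/c (1.05 ± 0.14).

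Marker lists of other cells are to be read against the 42.5% of all genes that rose in BALB/c and the 63.6% that rose in C57BL/6. The shares of all genes that fell were 7.67% and 8.56%. Of 5 satellite cell markers, 2 rose in each strain, no more than the share of all genes that rose, and their median change relative to all genes was -0.28 in BALB/c and -0.01 in C57BL/6. Their sum was 17.6 to 24.1 RPKM in BALB/c right and 10.1 to 11.9 RPKM in left legs, and 12.4 to 21.2 RPKM in C57BL/6 right and 8.95 to 9.75 RPKM in left legs. Of 8 macrophage markers 6 rose in BALB/c and 8 in C57BL/6 (median relative change 0.76 and 2.06), and their sum was 110 to 193 RPKM in BALB/c right and 34.7 to 65.5 RPKM in left legs, and 64.3 to 135 RPKM in C57BL/6 right and 6.75 to 8.07 RPKM in left legs. The part of these cells in the subunit levels was not tested. Fibroblast markers rose for 3 of 6 in BALB/c with 1 lower and for 6 of 6 in C57BL/6, and Schwann cell markers for 2 of 7 in each strain with 1 lower in BALB/c. Of 6 endothelial markers 0 rose in either strain, and 1 fell in BALB/c and 2 in C57BL/6. Of 4 motor axon markers, Slc18a3 was at 0 in all 12 libraries, Chat had 1 read in C57BL/6 right library 1 and 0 in the other libraries, and Slc5a7 had 0 to 1 reads per library. Prph, peripherin, an intermediate filament of peripheral neurons, had 5 to 55 reads per library and was the one that could be tested. Prph rose in C57BL/6 (log2 change 0.79 ± 0.18, adjusted p = 0.0061 by limma) and changed by -0.14 ± 0.28 in BALB/c (adjusted p = 0.698).

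The genes with the most similar pattern were sought by the root-mean-square difference of log2(RPKM + 0.5) profiles, centred within each table, over 12 libraries and 10729 genes. Chrnd and Chrng were each close to the other (0.40), rank 1 for Chrnd and rank 3 for Chrng. Closest to Chrng were Krt8, a keratin of simple epithelia (0.27), and Rrad, a Ras-related GTPase (0.35). Rrad had 954 ± 230 RPKM in BALB/c right and 2.81 ± 0.798 RPKM in left legs. Krt8 (0.41) and Aif1l (0.49) followed for Chrnd. Chrna1 was nearest to Aif1l, an actin-binding protein gene (0.41), Bpifb1 (0.48) and Cdkn1a, a cell cycle inhibitor (0.48), with Chrnd in rank 4 (0.51). Chrnb1 was nearest to Sh2d4a (0.22), Kcnn3, a calcium-activated potassium channel (0.24), and Rb1, the retinoblastoma gene (0.24), and the other 4 subunits lay at 1.59 or more from it. Chrne was nearest to Crym, crystallin mu (0.30), 4932702P03Rik (0.36) and its overlapping neighbour 4930544D05Rik (0.36). Profiles were centred over both legs of a table, so a small distance largely reflects a right minus left change of like size. Sh2d4a, for example, changed by 3.51 in BALB/c and 3.72 in C57BL/6, and Chrnb1 by 3.29 and 3.70. Several of these genes were searched only through their right legs. Krt8 had left means of 0.0613 RPKM in BALB/c and 0.137 RPKM in C57BL/6, and Bpifb1 0.0113 and 0.0110 RPKM, below the pseudocount of 0.5. These distances are descriptions over libraries that share their 2 tables.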

How the data were processed

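The authors deposited 1 table per strain of RPKM values. The file headers record HOMER counting over exons, on either strand, with its mm9 annotation, 1 transcript per gene; the column names say FPKM. HISAT2, HOMER and DESeq2 appear, with no version, in the submitters' processing notes, as do the builds GRCm38 and mm10; the alignment build is otherwise not given in the sources used here. Columns were matched to samples through the code in each description (in BALB/c, library 3 of both legs has code 4). The deposited transcript length and a scaling total turned 99.8% to 99.97% of checked values into whole reads within 0.1 read. A gene was tested where its mean reached 0.1 RPKM, on log2(RPKM + 0.5) with limma 3.58.1 under R 4.3.3 (moderated statistics, mean trend), within each table, or over all 12 libraries for the strain difference, p-values being adjusted over every gene tested (Benjamini-Hochberg) and called at 0.05. The test was tried on simulated data. A gene was named if it was one of the 5 members, one of the 3 most similar in pattern, the largest called rise or fall of a pathway list, or Chrna7; others are said to be chosen after their values were seen. Members and lists were chosen with earlier results of these data known. Alternatives were other pseudocounts and filters, median-of-ratios rescaling, a replicate block, limma-voom on recovered reads, a spread shared over all libraries and each library left out. RefSeq promoters (GRCm38.p6) were searched with Python 3.11.15. Intervals of read ratios and floors cover counting error only; limma's intervals rest on the spread between libraries.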

Additional observations from a re-analysis of the deposited data

How the results depend on the processing

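The rises of Chrna1, Chrnb1, Chrnd and Chrng kept their direction and their call in all 112 combinations of subunit, strain and alternative that were run, and 4 subunits rose in each strain throughout. The number of subunits that fell in BALB/c was 0 as reported and 1, Chrne, with a filter of 1 RPKM (adjusted p = 0.0417), after median-of-ratios rescaling (0.0177), with the replicate block (0.0286) and with limma-voom (0.0377). Leaving out 1 library gave 0 to 1. In C57BL/6 the change of Chrne was -0.27 after rescaling, and -0.17 to 0.74 with 1 library left out, negative without left library 2. The number of subunits that differed between the strains was 0 to 1 with 1 library left out, 1 without BALB/c right library 2. The causes were not tested. Leaving out 1 library gave log2 Chrng to Chrne ratios 8.13 to 8.52 higher in BALB/c right legs and 7.35 to 8.22 higher in C57BL/6 right legs, and 7.84 to 8.27 higher over both strains, for which the alternatives were chosen after seeing the data. Pseudocounts of 1 and 0.1 moved it more, to 7.36 and 10.3 in BALB/c, 6.81 and 9.46 in C57BL/6, and 7.08 and 9.88 over both strains. The change of Chrng reached 11.07 by limma-voom in either strain, against 7.48 and 8.10, so its size depends on how a few left reads are treated. The number of genes called in C57BL/6 was 7955 to 10627 over the alternatives other than leaving out a library. Same-numbered libraries of the 2 legs had correlations of deviations of 0.01, 0.07 and 0.24 in BALB/c and 0.18, 0.10 and 0.01 in C57BL/6. Differently numbered libraries had -0.19 to 0.11 in BALB/c and -0.17 to 0.10 in C57BL/6, most of them negative. No label states pairs, so the main test did not use them, and whether same-numbered libraries share an animal is not known. The call of Chrne in BALB/c depended on this choice (adjusted p = 0.0544 by limma without and 0.0286 with the replicate block). The replicate block changed no other subunit call, and sign flips of same-numbered pairs over both strains gave an exact p = 0.03125 for the ratio. The left legs hold 6 and 7 Chrng reads in all, which limits the precision of its ratio.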

Other observations

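Chrna2, a neuronal alpha subunit gene chosen after its values were seen, had 0 RPKM in all 6 right legs. In the left legs of BALB/c it had 0.0780, 1.28 and 0.122 RPKM (5, 82 and 8 reads), so most of its reads came from library 2. That library also had the highest Chrna1, Chrnd, Chrng and Chrne of its group. Its median-of-ratios factor was the highest of the group as well, 0.907, against 0.766 and 0.839 in libraries 1 and 3. The fall of Chrna2 in BALB/c did not pass the test (adjusted p = 0.127 by limma). In the left legs of C57BL/6 it had 0, 0.0150 and 0.0300 RPKM and was under the filter. Hdac4, a deacetylase that links denervation to the receptor genes through Dach2, rose to 21.4 ± 0.0927 RPKM in BALB/c right legs, against 3.14 ± 0.377 RPKM in left legs, and to 18.3 ± 1.09 RPKM in C57BL/6 right legs, against 2.78 ± 0.262 RPKM in left legs. Dach2 itself had 0 to 4 reads per library and was under the filter. Rapsn, which anchors the receptor, had 55.1 ± 9.95 RPKM in BALB/c right and 17.7 ± 1.41 RPKM in left legs, and 35.0 ± 3.42 RPKM in C57BL/6 right and 17.3 ± 2.36 RPKM in left legs. These genes were also chosen after their values were seen.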
